A study of Mus musculus with 9 samples.

Results

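Rn7sk, Rmrp, Rpph1, Terc, Gm24265 and Gm25360 are 6 short noncoding RNA genes whose products work as folded RNAs bound to proteins. They were chosen by gene symbol with earlier results of these data known, because several of them stood among the largest increases of NRF1 overexpression over control in the BV- cells. The symbols match 7 of the 56691 rows of each count table, since Rmrp has 2 rows. Of these 7 rows, 5 held at least 1 read in any library, and 4 (Rn7sk, Rpph1, Gm24265 and Gm25360) passed the filter on low counts and were tested.

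Rn7sk is the 7SK RNA, the scaffold of the particle that holds the elongation kinase P-TEFb inactive through the HEXIM proteins. Rpph1 is the catalytic RNA of RNase P, which trims the 5' ends of precursor tRNAs, and Rmrp is the related RNA of RNase MRP, which takes part in the maturation of ribosomal RNA. Terc is the template RNA of telomerase. Gm24265 and Gm25360 are spliceosomal RNA genes, whose sequences are those of the U4 and U2 families. RNA polymerase III makes the RNAs of Rn7sk, Rpph1 and Rmrp, RNA polymerase II makes those of Terc, U2 and U4, and none of the mature RNAs carries the long poly(A) tail of an mRNA. The libraries were made from RNA selected on oligo(dT) beads and then primed at random, so a read in these rows comes from an RNA that this selection is not designed to keep.

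The study differentiated BVSC mouse pluripotent stem cells (PSCs), a line with a Blimp1 reporter, as embryoid bodies, and asked how NRF1, a transcription factor of mitochondrial and growth genes, acts on primordial germ cell-like cells (PGCLCs). The NRF1 OE cells carried a doxycycline-inducible p20 vector with mouse Nrf1 cDNA and the Ctrl cells an empty vector, both introduced by lentivirus, and both received doxycycline (1.5 μg/mL) on days 2 to 5 of differentiation. Reporter-positive cells (BV+) and reporter-negative cells (BV-) were then sorted, named PGCLCs and somatic cells by the study. The 9 libraries sequenced were 2 of BV+ NRF1 OE, 3 of BV- NRF1 OE, 2 of BV+ Ctrl and 2 of BV- Ctrl. The study's methods speak of biological replicates without saying which libraries came from separate cultures, and the labels do not say it, so the p-values measure the spread between these libraries, part of which may be technical. Total counts lay between 13702162 and 19625460, Nrf1 itself was read at 95.7 and 99.4 CPM (reads scaled to a common library size) in BV+ NRF1 OE against 91.1 and 90.4 in BV+ Ctrl, and at 119 to 126 CPM in BV- NRF1 OE against 99.1 and 105 in BV- Ctrl. Neither Nrf1 difference passed edgeR's quasi-likelihood test (adjusted p = 0.489 and 0.0718). Prdm1, the gene of the reporter, averaged 54.9 CPM in BV+ and 54.8 CPM in BV- NRF1 OE cells, and 60.1 and 58.0 CPM in the respective Ctrl cells.

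The reference sequences of the 4 tested RNAs are given first, because their short lengths, their lack of an encoded run of A and their family are what the reads have to be set against. They are sense strands, written with T for U, whole for Gm24265 and Gm25360 and from base 1 to base 300 for Rn7sk and Rpph1, and come from the GENCODE M21 annotation of the GRCm38 build, matched by symbol. The count tables were made on GRCm39, so no coordinates are printed. Rn7sk lies on chromosome 9, Rpph1 on chromosome 14, Gm24265 on chromosome 5 and Gm25360 on chromosome 1. Capitals mark every GATC in Rn7sk, a motif found in the stem that HEXIM binds, though not every marked copy need lie in that stem. They also mark ATTTTTG in Gm24265 and Gm25360, letters of the kind that form the Sm protein binding site of spliceosomal RNAs. Both motifs were searched on the RNA strand alone.
Rn7sk: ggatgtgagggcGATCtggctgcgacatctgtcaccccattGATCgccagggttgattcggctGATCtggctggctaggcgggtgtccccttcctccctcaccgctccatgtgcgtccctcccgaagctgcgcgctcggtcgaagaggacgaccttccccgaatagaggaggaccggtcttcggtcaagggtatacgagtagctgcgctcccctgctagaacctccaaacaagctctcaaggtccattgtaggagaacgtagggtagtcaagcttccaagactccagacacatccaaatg
Rpph1: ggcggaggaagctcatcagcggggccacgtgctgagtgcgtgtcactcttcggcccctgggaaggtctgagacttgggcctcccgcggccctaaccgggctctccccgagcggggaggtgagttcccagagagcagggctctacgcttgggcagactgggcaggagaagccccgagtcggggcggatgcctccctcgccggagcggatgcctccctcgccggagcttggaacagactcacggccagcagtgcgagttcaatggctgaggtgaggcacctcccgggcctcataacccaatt
Gm24265: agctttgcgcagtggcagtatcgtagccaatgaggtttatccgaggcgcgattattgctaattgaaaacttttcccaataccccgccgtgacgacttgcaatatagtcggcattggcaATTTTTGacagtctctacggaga
Gm25360: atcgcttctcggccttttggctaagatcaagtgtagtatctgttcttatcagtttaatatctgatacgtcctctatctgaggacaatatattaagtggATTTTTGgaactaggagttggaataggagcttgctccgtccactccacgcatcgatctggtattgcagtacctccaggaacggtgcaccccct
GATC occurs 3 times in Rn7sk, and 9.14% of the 1947 reference genes within 30 bases of its length hold as many. ATTTTTG occurs once in each of Gm24265 and Gm25360, and in 3.33% of 1383 reference snRNA genes. Gm25360 is 97.9% identical to Rnu2-10, an annotated U2 gene, and Gm24265 is 98.6% identical to its neighbour Gm24407, which lies 655 bases away. The longest run of A in the 4 sequences has 4 bases, whereas 8.42% of 13513 short reference genes (under 450 bases) hold a run of 6 or more. The counted lengths in the tables (331, 319, 141 and 191 bases) equal those of the reference sequences.

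Some members share their place with another gene. Rpph1 shares 284 of its 319 bases with Ccnb1ip1 on the same strand. The 2 Rmrp rows, on chromosome 4, are nested, with a 271-base ribozyme entry wholly inside a 281-base entry, and the longer one also shares 164 bases with Ccdc107 on the opposite strand. How reads over 2 features, or reads with several equal placements, were assigned is not given in the sources used here, and the U2 and U4 rows have near-identical copies, so reads may be split between copies or left out. Another 329 rows carry the symbol 7SK and together hold 350 counts, against 550 for Rn7sk, so its reads may be split too. Rn7sk, Terc, Gm24265 and Gm25360 overlap no annotated gene.

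All the counted members peaked in the same library. BV- NRF1 OE 2 was the highest of the 9 libraries and BV- NRF1 OE 1 the second in 5 of 5 rows with a count. Because the members were chosen from increases in BV- NRF1 OE, a peak in that group was favoured by the choice. The share of all genes with this order was not counted. From the lowest to the highest library the level of Rn7sk spanned 18.8-fold, Rpph1 16.6-fold, Gm24265 49.1-fold and Gm25360 91.0-fold in CPM. The libraries of the same group were also far apart: within BV- NRF1 OE, Rn7sk in the highest library was 5.41 times that in the lowest.

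**Figure D1:**
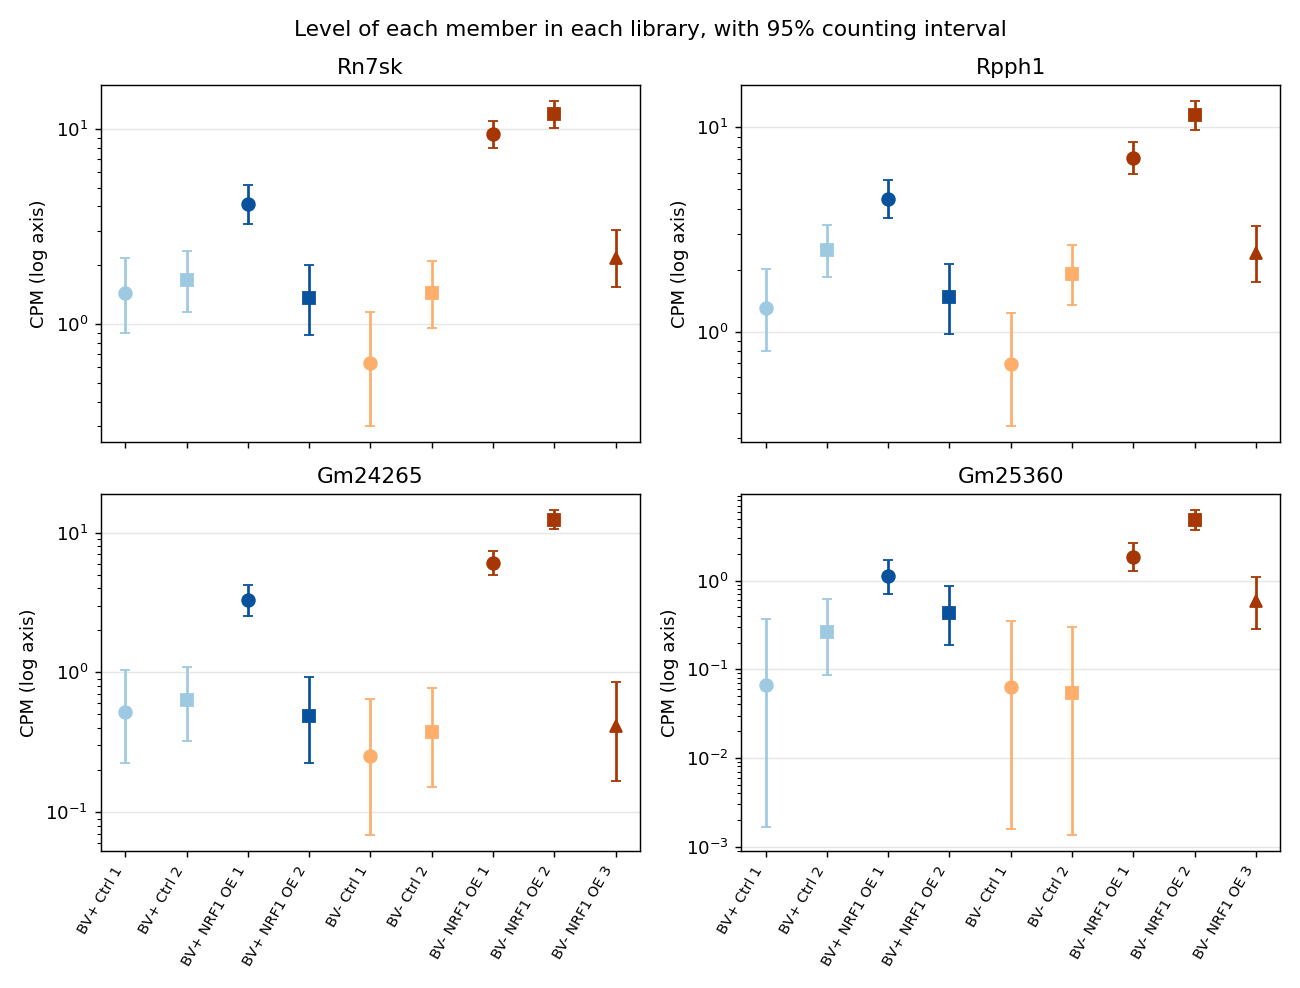
CPM on a log axis of Rn7sk, Rpph1, Gm24265 and Gm25360 in each of the 9 libraries, coloured by group with a marker for each replicate number, and with 95% exact Poisson intervals that cover counting error only. BV- NRF1 OE 1 and 2 stand above all other libraries in the 4 panels, and BV- NRF1 OE 3 lies below BV+ NRF1 OE 1 in each.

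Rn7sk, which keeps P-TEFb in reserve, was read at 9.39, 11.9 and 2.19 CPM in the BV- NRF1 OE libraries 1, 2 and 3 (156, 161 and 37 counts) and at 0.630 and 1.44 CPM in BV- Ctrl. In BV+ it was read at 4.12 and 1.36 CPM with NRF1 OE and at 1.44 and 1.68 CPM in Ctrl. The group means were 7.82 ± 5.02 CPM (SD, n = 3), 1.04 ± 0.574 (n = 2), 2.74 ± 1.95 (n = 2) and 1.56 ± 0.167 (n = 2) in the same order. The BV- groups did not overlap, whereas in BV+ 1 NRF1 OE library lay above and the other below both Ctrl libraries.

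Rpph1, the RNase P RNA, followed the same course. It stood at 7.10, 11.5 and 2.43 CPM in BV- NRF1 OE against 0.693 and 1.92 CPM in BV- Ctrl, and at 4.48 and 1.47 CPM in BV+ NRF1 OE against 1.31 and 2.52 CPM in BV+ Ctrl. The BV+ groups overlapped and the BV- groups did not, although BV- NRF1 OE 3 exceeded BV- Ctrl 2 by little (41 against 36 counts). Per length the RNAs of Rn7sk and Rpph1 stayed close in every library: the ratio of their FPKM lay between 0.642 and 1.27, with a median of 0.886, while each of them varied more than 16-fold in CPM.

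Gm24265, of the U4 family, was read at 6.08, 12.4 and 0.415 CPM in BV- NRF1 OE and at 0.252 and 0.374 CPM in BV- Ctrl. BV- NRF1 OE 3 held 7 counts, as many as BV- Ctrl 2. In BV+ the NRF1 OE libraries gave 3.30 and 0.490 CPM and the Ctrl libraries 0.524 and 0.629 CPM, so that 1 NRF1 OE library lay above and the other below both controls.

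Gm25360, of the U2 family, had the lowest counts of the 4. It was read at 1.87, 4.86 and 0.592 CPM in BV- NRF1 OE, from 31, 66 and 10 counts, and from 1 count in each BV- Ctrl library. In BV+ NRF1 OE it stood at 1.13 and 0.435 CPM (22 and 8 counts), above 0.0655 and 0.262 CPM in BV+ Ctrl (1 and 5 counts). It was the 1 tested member whose BV+ groups did not overlap, where 38.1% of all 16903 genes tested had every NRF1 OE library above every Ctrl library.

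In FPKM, which divides counts by gene length, Gm24265 was the highest of the 4 in the 3 libraries where all were high. It reached 87.0 FPKM in BV- NRF1 OE 2, against 35.7 for Rpph1, 35.5 for Rn7sk and 25.2 for Gm25360. In the other 6 libraries Rpph1 was the highest in 5 and Rn7sk in 1, at FPKM values from 2.19 to 8.08. The spliceosomal RNA therefore changed its place in the order with the library. The 4 RNAs are short, from 141 to 331 bases, and reads may be split between copies. The order is therefore one of FPKM and not of amounts.

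Few or no reads were counted for Rmrp and Terc. The longer Rmrp entry held 4 and 13 counts in BV- NRF1 OE 1 and 2, none in BV- NRF1 OE 3, none in either BV+ NRF1 OE library, and 1 count in each of BV+ Ctrl 1, BV+ Ctrl 2 and BV- Ctrl 2. Its BV+ groups thus did not overlap either, with NRF1 OE lower, by 1 count. Pooled over libraries, 17 counts in BV- NRF1 OE against 1 in BV- Ctrl gave a ratio of 12.5 with a 95% exact counting interval of 1.96 to 522. The nested Rmrp entry and Terc had 0 counts in 9 of 9 libraries. For Terc this allows a level of up to 0.155 to 0.221 CPM by library, taking 3 counts as the limit. That limit concerns reads in a poly(A)-selected library, not the amount of the RNA in the cells. All 271 bases of the nested Rmrp entry lie in the longer one, so reads over both may have been left out. The Rmrp counts therefore set no such limit.

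In BV+ cells, the comparison that did not choose the members, none of the 4 tested RNAs passed the test. The fitted log2 fold changes of NRF1 OE over Ctrl were 0.81 (SE 0.741) for Rn7sk, 0.62 (SE 0.716) for Rpph1, 1.70 (SE 1.27) for Gm24265 and 2.14 (SE 1.13) for Gm25360. Their adjusted p-values by edgeR's quasi-likelihood test, with Benjamini-Hochberg adjustment over all genes, were 0.453, 0.559, 0.355 and 0.206. Thus 0 of 4 were called, against 8.02% of all genes tested (6.24% higher and 1.78% lower with NRF1 OE), and 0 of 4 had an unadjusted p under 0.05, against 32.5%. DESeq2 called 0 of 4 after adjustment and gave 1 an unadjusted p under 0.05. Gm25360 entered this test through its counts in BV- NRF1 OE, a group of the comparison that chose the members. With the BV+ libraries fitted alone it did not pass the filter, and 0 of the other 3 were called, while 4371 of all genes were. In that fit the standard errors were 0.457 for Rn7sk, 0.475 for Rpph1 and 0.709 for Gm24265, and the adjusted p-values by edgeR were 0.224, 0.383 and 0.0992.

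These BV+ values rested on single libraries. Without BV+ NRF1 OE 1 the log2 fold change turned to -0.20 for Rn7sk, -0.40 for Rpph1 and -0.24 for Gm24265, while Gm25360 remained above 0 at 1.30. With no filter on low counts, 2 of the 4 passed in edgeR (Gm24265, adjusted p = 0.00124, and Gm25360, adjusted p = 0.011). In that fit 3440 of the 33142 genes with a count were called in BV+. With all BV+ libraries kept, neither RNA passed under another alternative.

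**Figure D2:**
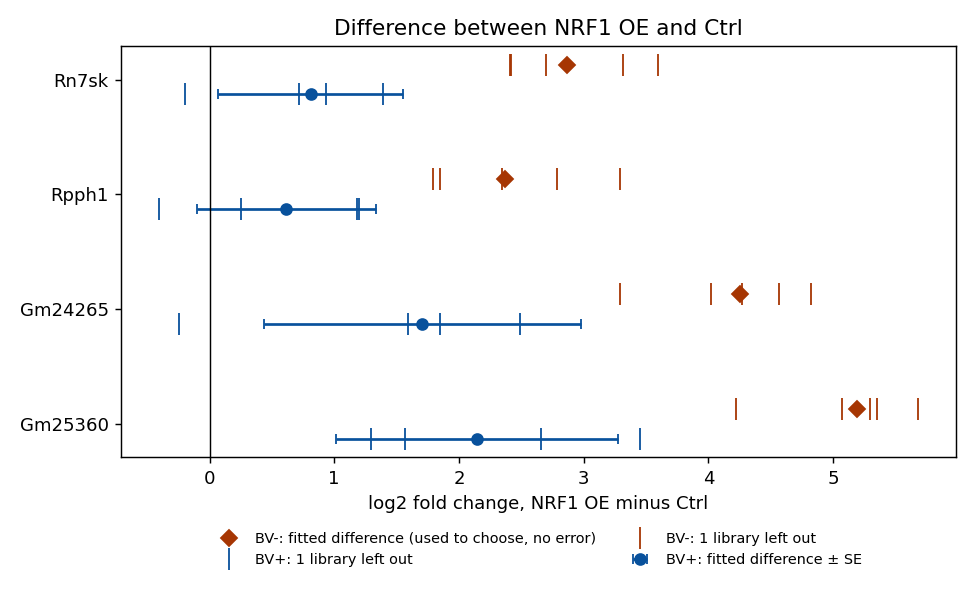
Fitted log2 fold change of NRF1 OE over Ctrl for the 4 tested members, in BV+ cells (blue circles with SE) and in BV- cells (brown diamonds, shown without error because this comparison chose the members), with ticks for the fits that leave out 1 library each. In BV+ the ticks of 3 members cross 0, at -0.20, -0.40 and -0.24, and in BV- every tick lies at 1.79 or above.

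The BV- comparison is described without a test, since it is the one from which members were taken. Its fitted log2 fold changes were 2.86 for Rn7sk, 2.37 for Rpph1, 4.25 for Gm24265 and 5.20 for Gm25360. All 4 exceeded 1, as did 1.83% of all genes tested, and in all 4 every NRF1 OE library lay above every Ctrl library, as in 29.4% of all genes. Leaving out BV- NRF1 OE 2 lowered them to 2.41, 1.79, 3.29 and 4.22. The highest values were 3.59 for Rn7sk and 3.30 for Rpph1, without BV- Ctrl 2, and 4.83 for Gm24265 and 5.68 for Gm25360, without BV- NRF1 OE 3. Pooled counts gave NRF1 OE over Ctrl ratios of 7.03 for Rn7sk (95% counting interval 5.00 to 10.2), 4.93 for Rpph1 (3.62 to 6.84), 18.4 for Gm24265 (10.2 to 37.4) and 39.3 for Gm25360 (10.6 to 329, from 2 control counts). These intervals cover counting error only, which is smaller than the spread between the libraries.

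BV+ and BV- cells were also set side by side, as a description, since both BV- groups went into the choice of the members. Low levels in BV- Ctrl favoured that choice, so the Ctrl ratios are not independent of it either. With NRF1 OE the pooled level in BV+ was 0.370 times that in BV- for Rn7sk, 0.451 times for Rpph1, 0.330 times for Gm24265 and 0.349 times for Gm25360. In Ctrl it was 1.47, 1.46, 1.83 and 3.02 times, respectively, and all 4 counting intervals in Ctrl included 1. Such intervals cover counting error only, not the spread between libraries. These ratios depended on single libraries. With NRF1 OE, that of Gm24265 ran from 0.0835 without BV+ NRF1 OE 1 to 0.599 without BV- NRF1 OE 2, and that of Rn7sk from 0.181 without BV+ NRF1 OE 1 to 0.548 without BV+ NRF1 OE 2. In Ctrl without BV- Ctrl 2, Rn7sk was at 2.50 times (counting interval 1.26 to 5.50) and Rpph1 at 2.86 times (1.50 to 5.99), and both intervals then lay above 1, as did that of Rpph1 without BV+ Ctrl 1 (1.21 to 2.83). The NRF1 OE ranges overlapped for the 4 RNAs, since BV+ NRF1 OE 1 lay above BV- NRF1 OE 3 in each.

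The genes nearest to each member in their pattern over the 9 libraries were then listed, by the root mean square difference of centred log2 CPM among 14374 genes of at least 1 CPM. Nearest to Rn7sk were Rpph1 (0.260), Rn18s-rs5 (0.436) and ENSMUSG00002076173, an entry without a symbol (0.481), where the median gene was at 1.28. Nearest to Rpph1 were Rn7sk (0.260), Rn18s-rs5 (0.335) and Lars2 (0.402). Gm24265 had Gm22513, 96.4% identical to the U1 gene Rnu1b1, at 0.343, the U4 gene Gm24407 at 0.576 and Rn7sk at 0.636. Gm25360 had Rn7sk at 0.638, Gm24265 at 0.698 and Crb3, an epithelial polarity gene, at 0.711. The likeness is a description over 9 libraries that share their depth and preparation.

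Rn18s-rs5, whose symbol names a sequence related to the 18S ribosomal RNA, is another RNA that oligo(dT) selection is not designed to keep. It was read at 7373, 10980 and 3327 CPM in BV- NRF1 OE against 1573 and 2815 CPM in BV- Ctrl, and at 5510 and 2157 CPM in BV+ NRF1 OE against 2638 and 2894 CPM in BV+ Ctrl. Its 3 highest libraries were those of the 4 tested members, and it made up between 0.159% and 1.09% of the counts. Lars2, the mitochondrial leucyl-tRNA synthetase gene, had 740, 1056 and 291 CPM in BV- NRF1 OE and 185 and 295 CPM in BV- Ctrl. In BV+ it had 494 and 211 CPM with NRF1 OE and 229 and 250 CPM in Ctrl, so its 3 highest libraries were also those of Rn18s-rs5. Which part of the gene its reads came from cannot be told from counts per gene.

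Set against Rn18s-rs5 in place of all counts, a ratio chosen after seeing the data, the members differed less between groups. The ratio of group means of NRF1 OE over Ctrl in BV- went from 7.54 in CPM to 2.20 for Rn7sk, from 5.36 to 1.63 for Rpph1, from 20.1 to 4.72 for Gm24265 and from 41.9 to 9.87 for Gm25360. In BV+ it went from 1.76 to 1.22 for Rn7sk and from 1.56 to 1.09 for Rpph1. For Rn7sk the ratio to 1000 counts of Rn18s-rs5 was 1.27, 1.08 and 0.659 in BV- NRF1 OE and 0.401 and 0.512 in BV- Ctrl, and the groups still did not overlap. For Gm24265 it was 0.825, 1.13 and 0.125 against 0.160 and 0.133, and BV- NRF1 OE 3 then fell below both controls. The part of ribosomal RNA carry-over in the members' values was not tested, and in these poly(A)-selected bulk libraries the amount of an RNA in the cells and the share of it kept by the selection cannot be told apart, nor can fewer cells of a type and less RNA per cell.

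**Figure D3:**
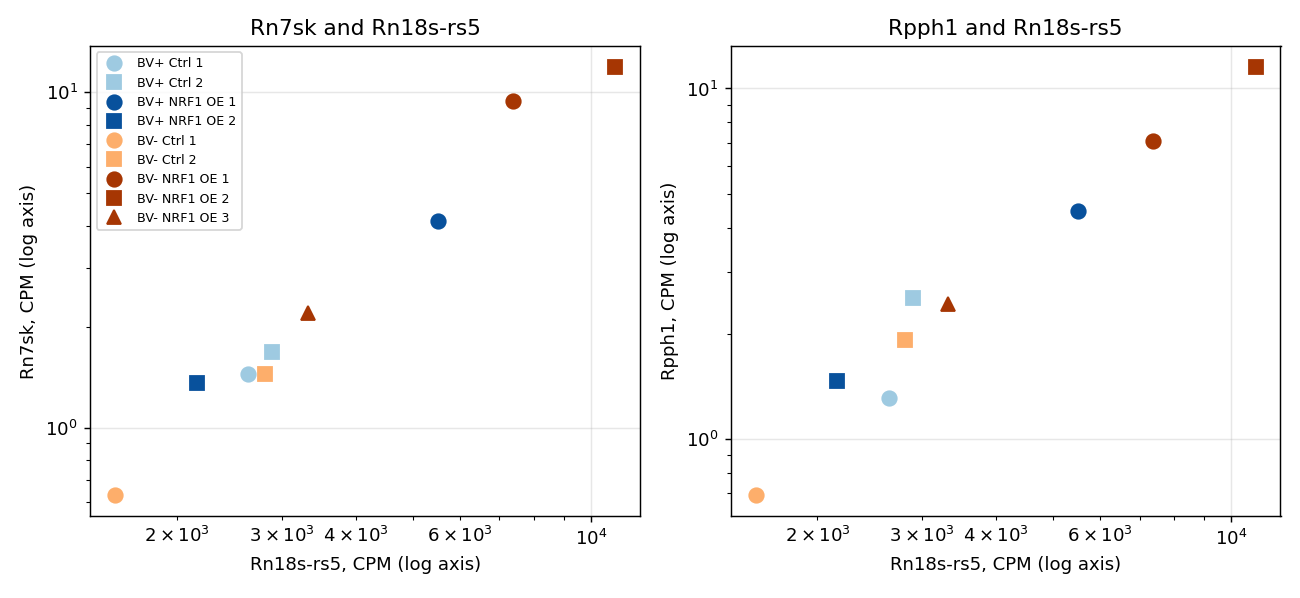
CPM of Rn7sk (left) and Rpph1 (right) against CPM of Rn18s-rs5, both on log axes, with 1 point for each of the 9 libraries. BV+ NRF1 OE 1 and BV- NRF1 OE 1 and 2 stand highest on both axes, at 5510, 7373 and 10980 CPM of Rn18s-rs5, and BV- Ctrl 1 lowest on both.

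Other RNAs of the spliceosome were counted by family, with families set by at least 90% identity to a reference gene. For U4 that gene was the member Gm24265 itself. These classes were drawn up after values were seen and are given with no test. The rows of the U1, U2, U4, U5, U7, U11 and U12 families, all of which bind Sm proteins, summed without the 2 members to 15.8, 30.5 and 1.96 CPM in BV- NRF1 OE, 2.33 and 1.87 in BV- Ctrl, 8.30 and 2.61 in BV+ NRF1 OE and 2.95 and 2.57 in BV+ Ctrl. The sum was highest in the same 3 libraries as the 4 tested members, and much of it came from 2 genes. The U1-family gene Gm22513 alone gave 5.12, 10.9 and 0.178 CPM in BV- NRF1 OE against 0.315 and 0.374 CPM in BV- Ctrl. The U4-family gene Gm24407, the neighbour of Gm24265, gave 5.24, 10.2 and 0.474 CPM against 0.189 and 0.481 CPM. It is 98.6% identical to Gm24265, so the sum without the 2 members may hold reads shared with that member. The U5 rows summed to 0.662, 1.99 and 0 CPM in BV- NRF1 OE against 0.0630 and 0.427 CPM in BV- Ctrl, and to 0.464 and 0.0544 CPM in BV+ NRF1 OE against 0.721 and 0.262 CPM in BV+ Ctrl. The 825 snRNA rows under 90% identity to any family gene had a ratio of mean sums of NRF1 OE over Ctrl of 0.535 in BV- and 0.442 in BV+. Over all snRNA rows without the members, that ratio was 1.60 in BV- and 0.762 in BV+.

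Other U2 copies did not all follow Gm25360. Gm22973 (94.8% identical to it) was read at 1.14, 2.06 and 0.237 CPM in BV- NRF1 OE and at 0 and 0.160 CPM in BV- Ctrl, whereas Gm24497 (97.9% identical) was read at 0.783, 0.663 and 0.355 CPM against 1.01 and 0.160 CPM. Rnu12, of the minor spliceosome, gave 0.602, 0.958 and 0.119 CPM in BV- NRF1 OE and 0.126 and 0.0534 CPM in BV- Ctrl.

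The Y RNA, 7SL and vault RNA rows, made by RNA polymerase III like Rn7sk, summed to 3.25, 7.37 and 1.01 CPM in BV- NRF1 OE against 0.189 and 0.427 CPM in BV- Ctrl, and to 2.53 and 1.14 CPM in BV+ NRF1 OE against 0.983 and 0.839 CPM in BV+ Ctrl. In both fractions every NRF1 OE library lay above every Ctrl library, as in 29.4% of all genes tested in BV- and 38.1% in BV+. The gap in BV+ was small, with 21 counts in BV+ NRF1 OE 2 against 15 and 16 in BV+ Ctrl. The U6 rows, also made by RNA polymerase III, were lower with NRF1 OE in BV-, at 1.81, 0.884 and 1.54 CPM in NRF1 OE and 3.34 and 2.67 CPM in Ctrl, while in BV+ the groups overlapped (1.80 and 1.36 CPM in NRF1 OE, 1.70 and 3.04 CPM in Ctrl). Of 303 U6 rows, 71 held a count and 1 passed the filter, so most of that sum is spread thinly over copies.

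Small nucleolar RNAs, which guide chemical modification of other RNAs, were read at levels that overlapped between the BV- groups. They summed to 39.9, 40.1 and 25.2 CPM in BV- NRF1 OE against 49.5 and 36.7 CPM in BV- Ctrl, and to 29.1 and 22.4 CPM in BV+ NRF1 OE against 41.1 and 54.0 CPM in BV+ Ctrl. Of the 78 snoRNA rows with at least 20 counts, 73 lie inside another gene on the same strand, against 2 of 7 rows of the Sm-binding families and none of 5 Y, 7SL and vault rows. Reads of a host intron and of the snoRNA cannot be told apart in such rows.

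**Figure D4:**
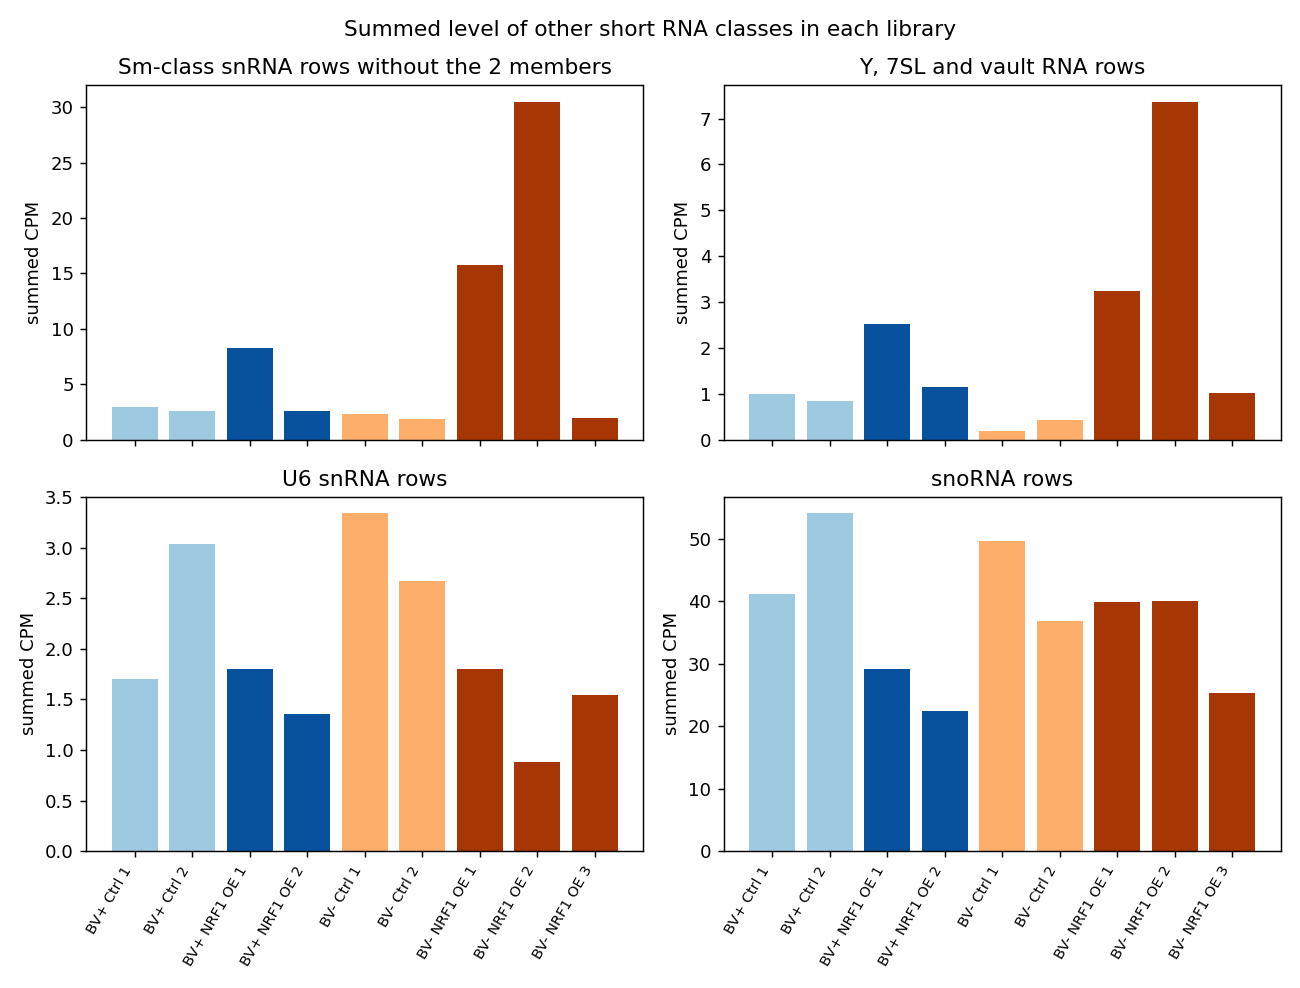
Summed CPM in each of the 9 libraries of the Sm-binding snRNA rows without Gm24265 and Gm25360, the Y, 7SL and vault RNA rows, the U6 rows and the snoRNA rows, with bars coloured by group and each axis starting at 0. The upper panels peak in BV- NRF1 OE 2, at 30.5 and 7.37 CPM, and in the lower panels that library gives 0.884 and 40.1 CPM.

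Other RNAs without a usual poly(A) tail were also tested (edgeR, adjusted over all genes). Of 30 clustered histone genes tested, 3 rose and none fell in BV+, and 5 rose and none fell in BV-. Their median log2 fold changes were 0.73 and 0.98. Among all genes tested, 8.02% were called in BV+ (6.24% higher) and 17.2% in BV- (10.2% higher). Small RNA genes named as such by symbol had 0 of 25 called in BV+ and 2 rise in BV-, with medians of -0.50 and -0.25. The mitochondrial rRNA and tRNA genes had 0 of 4 called in either, with medians of 0.51 and 0.55. A list set by length alone, whatever the tail, held 337 tested genes counted over fewer than 400 bases, members left out. Of these, 10 rose and 10 fell in BV+, and 27 rose and 6 fell in BV-. The median of all genes tested was 0.04 in BV+ and 0.01 in BV-. Malat1, a nuclear RNA without a poly(A) tail at its mature end, was read at 177, 73.7 and 82.8 CPM in BV- NRF1 OE and at 191 and 161 CPM in BV- Ctrl, and passed in neither comparison (edgeR, adjusted p = 0.661 in BV+ and 0.135 in BV-). Its lowest library was BV- NRF1 OE 2, in which the members were highest. The 4 nuclear long noncoding RNAs followed are grouped by their place in the cell, not by their tail. Of these, Meg3 (-0.88) and Neat1 (-1.07) fell in BV+ and Meg3 (-0.54) in BV-, on the log2 scale (edgeR, adjusted p = 0.0221, 0.0301 and 0.0447).

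The proteins that bind, process or transcribe these RNAs were tested in both fractions. Their calls in BV- have to be read against 17.2% of all genes called there (10.2% higher and 6.98% lower), and calls there depend on the libraries: 2910 genes were called in BV-, against 0 without BV- Ctrl 1, 1 without BV- Ctrl 2, 35 without BV- NRF1 OE 3, 5847 without BV- NRF1 OE 1 and 0 when the BV- libraries were fitted alone.

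Of 9 genes of the 7SK particle and P-TEFb, none was called in BV+ and 1 fell in BV-. That gene was Ccnt2, a cyclin of P-TEFb, at -0.59 on the log2 scale (edgeR, adjusted p = 0.0351). Larp7, which binds the 3' end of 7SK, was at -0.11 in BV+ and -0.43 in BV- (adjusted p = 0.629 and 0.0507), and Mepce, which caps it, at 0.23 and 0.22 (0.233 and 0.197). The inhibitor Hexim1 was at -0.07 and -0.14 (0.742 and 0.431) and the kinase Cdk9 at 0.12 and 0.27 (0.436 and 0.0748). The median over the 9 was -0.11 in BV+ and -0.14 in BV-.

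Of 11 proteins of RNase P and RNase MRP, none was called in BV+, and Rpp21 (0.71) and Pop7 (0.49) rose in BV- on the log2 scale (edgeR, adjusted p = 0.0409 and 0.0454). The large shared subunit Pop1 was at 0.01 in BV+ and 0.06 in BV-, and Rpp30 at -0.14 and -0.11, none of which passed. Medians over the list were 0.11 and 0.06.

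Of 12 proteins of telomerase and the H/ACA particles, none was called in BV+. In BV- the H/ACA proteins Nhp2 (0.49) and Nop10 (0.45) and the assembly factor Ruvbl2 (0.42) rose, and Tent4b, a noncanonical poly(A) polymerase, fell (-0.59), with edgeR adjusted p = 0.0338, 0.0351, 0.036 and 0.0366. Tert, the reverse transcriptase, was read at 16.2 CPM in BV+ NRF1 OE and 21.2 CPM in BV+ Ctrl and did not pass (log2 fold change -0.39, edgeR adjusted p = 0.136). Dkc1, the pseudouridine synthase that holds Terc, was at -0.46 in BV+ and -0.53 in BV- (adjusted p = 0.170 and 0.0787). Tert mRNA was thus read in these cells while Terc was at 0 counts.

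Of 33 subunits and factors of RNA polymerase III and of small nuclear RNA promoters, Gtf3c1, the largest subunit of TFIIIC, rose in BV+ (0.44, edgeR adjusted p = 0.0388) and none fell. In BV- 6 rose and 4 fell. Those with the smallest p there were Snapc1, of the complex that binds snRNA and 7SK promoters, at -0.74, Maf1, a repressor of RNA polymerase III, at 0.65, and Polr1c, a subunit shared with RNA polymerase I, at 0.47 (adjusted p = 0.0317 each). Gtf3c1 followed at 0.40 (adjusted p = 0.0342). The catalytic subunit Polr3a was at 0.09 in BV+ and 0.10 in BV- (0.588 and 0.459). The median was -0.10 in BV+ and -0.07 in BV-.

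Several other measures differed between the libraries, and their part in the members' values was not tested. How far a library departed from the mean of all libraries was rank-correlated with GC content over 16686 genes, with a coefficient of 0.282 and 0.0242 in BV+ NRF1 OE, 0.0296, 0.620 and 0.467 in BV- NRF1 OE, and between -0.505 and -0.398 in the 4 Ctrl libraries. The 5 NRF1 OE libraries thus lay above the 4 Ctrl libraries in this measure. The same coefficient with gene length was -0.0612 and 0.130 in BV+ NRF1 OE and -0.262, -0.341 and -0.167 in BV- NRF1 OE. It was 0.279 and 0.312 in BV+ Ctrl and 0.140 and 0.0586 in BV- Ctrl. Its lowest value, which means relatively more reads in short genes, was in BV- NRF1 OE 2, where the members were highest. Rn7sk has 58.0% GC, Rpph1 67.1%, Gm24265 46.8% and Gm25360 45.0%. With trends in GC content and length removed, the BV- log2 fold changes were 2.38, 1.91, 4.17 and 5.29 in that order, and the BV+ ones 0.35, 0.06, 1.70 and 2.22.

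Cell markers were followed for other cell types that a sort could hold. The summed PGC markers stood at 651 and 699 CPM in BV+ NRF1 OE, 656 and 635 in BV+ Ctrl, 866 to 928 in BV- NRF1 OE and 702 and 718 in BV- Ctrl. Of the 9 PGC markers 1 rose in BV+ (Dppa3) and 5 in BV- (edgeR, adjusted over all genes). Over all genes tested, 8.02% were called in BV+ and 17.2% in BV- (10.2% higher). As given above, the BV- calls depended on which libraries were fitted. Of the 6 pluripotency markers 2 fell in BV+, and in BV- 1 rose and 2 fell. Summed, they stood at 2209 and 2528 CPM in BV+ NRF1 OE and 2680 and 2541 CPM in BV+ Ctrl. In BV- they stood at 2964, 3034 and 3117 CPM with NRF1 OE and 2804 and 2872 CPM in Ctrl. The PGC and pluripotency sums were thus higher in every BV- library than in every BV+ library, which runs against the fraction names. Mesoderm markers had 0 of 3 tested called in either fraction, endoderm markers 0 of 6 in BV+ and 1 lower in BV-, neuroectoderm markers 1 of 5 higher in BV+ and none in BV-, and blood and endothelium markers 1 of 4 higher in BV+ and none in BV-. Between BV- NRF1 OE 2 and 3, where Rn7sk differed 5.41-fold, the summed PGC markers were 928 and 866 CPM. In the same libraries the sums were 3034 and 3117 CPM for pluripotency, 5.97 and 6.16 for mesoderm and 27.85 and 15.81 for endoderm markers. They were 155 and 154 CPM for neuroectoderm markers and 159 and 172.5 CPM for blood and endothelium markers. The part of cell makeup in the members' values was not tested.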

How the data were processed

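RNA was taken from sorted BV+ and BV- cells, selected on oligo(dT) beads, fragmented and primed at random. Per the labels, the authors aligned reads with HISAT2 (2.0.1) to GRCm39 and counted them with HTSeq (0.6.1); strand and multi-mapping settings are not given in the sources used here. The deposited tables hold raw counts per gene and FPKM, which the authors computed from those counts and gene lengths. CPM is the count over the TMM-scaled library size, times 1000000.

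Genes with low counts were removed (edgeR filterByExpr) and 16903 of 56691 were tested with edgeR 4.0.16, by a quasi-likelihood test with 1 mean per group over all 9 libraries and Benjamini-Hochberg adjustment over all genes, at 0.05 (R 4.3.3, limma 3.58.1). Alternatives used DESeq2 1.42.0, other scalings, filters, trend offsets, a replicate block and libraries left out. The fit was tested on simulated data. Intervals of counts are exact at 95%, and 3 counts are the limit of a count of 0. Reference sequences and types came from GENCODE M21 (GRCm38), matched by symbol, and identities from edlib.

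The members and the lists were chosen with earlier results of these data known. Besides the members, named genes were those of each partner list past 0.05 in either comparison, at most 4 a list by smallest p, with Larp7, Mepce, Hexim1, Cdk9, Pop1, Rpp30, Tert, Dkc1, Polr3a, Snapc1 and Malat1 always named, and the 3 genes nearest to each tested member over the libraries. Genes named in the snRNA, Y RNA and ribosomal RNA classes, and the marker Dppa3, were chosen after their values were seen. Same-numbered libraries share only a number.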

Additional observations from a re-analysis of the deposited data

How the results depend on the processing

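In BV+ cells 0 of the 4 tested members were called under every alternative except the one with no filter on low counts, which called 2; with the BV+ libraries fitted alone, Gm25360 did not pass the filter and 3 were tested. With 1 library left out the count was 0, but in 3 of those 4 fits 0 of all genes were called, so that count says nothing of the members. The log2 fold changes ran from -0.20 to 1.39 for Rn7sk, -0.40 to 1.20 for Rpph1, -0.24 to 2.49 for Gm24265 and 1.30 to 3.45 for Gm25360, the lowest being without BV+ NRF1 OE 1 in each. In BV- 4 to 5 members exceeded a log2 fold change of 1 with 1 library left out, as did 1.83% of all genes in the main fit. The members' direction in BV- was the same under all alternatives tried. As this comparison chose the members, their direction was favoured by the choice and is a description only. The ratio to Rn18s-rs5 gave the lowest BV- values, 1.14 for Rn7sk, 0.70 for Rpph1, 2.24 for Gm24265 and 3.30 for Gm25360.

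With 1 library left out, the median log2 fold change of small RNA genes by symbol in BV- ran from -0.39 to 0.17 and that of mitochondrial rRNA and tRNA genes from -0.01 to 0.79, so their sign depends on the library. Other scalings turned the sign of no partner list's median.

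Counts over all genes were less stable. In BV+, 1355 genes were called, against 3440 with no filter, 2106 with GC and length offsets, 4371 when BV+ libraries were fitted alone, 2106 in DESeq2, and 0 to 2028 with 1 library left out. In BV-, 2910 were called, against 4392 with no filter, 1403 with GC and length offsets, 0 when BV- libraries were fitted alone, and 0 to 5847 with 1 library left out. Where 1 library of a group remained, it was assumed to vary like the other groups. With the replicate block 3 genes were called in BV+ and 0 in BV-, and no member. The deviations of same-numbered libraries had r = 0.246 between the BV- groups, -0.032 between the BV+ groups and -0.243 to -0.104 between the others, and as no label ties the numbers to a shared batch, they were not taken as pairs. The cause of these differences was not tested. Groups of 2 or 3 libraries, and between 1 and 168 counts per library for the 4 tested members, limit what could be seen.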
